A study of Mus musculus with 21 samples.

Results

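The genes described are 9 components of the epidermal tight junction, chosen by name from 49315 gene identifiers in the count files: the claudin genes Cldn1, Cldn4, Cldn7, Cldn8 and Cldn23, the occludin gene Ocln, the zonula occludens scaffold genes Tjp1 and Tjp3, and the cingulin gene Cgn. Each name matched 1 Ensembl identifier. The series concerns Tfap2a and Tfap2b, the genes of the AP-2α and AP-2β transcription factors, in mouse epidermis. Total RNA of epidermis was sequenced after removal of ribosomal RNA, with 7 groups of 3 samples.

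The comparison set 3 libraries from mice labelled K14CreTfap2afl/flTfap2bfl/fl at 6 months of age, called the double knockout (double cKO) below, against 3 strain-specific control libraries of the same age whose genotype is labelled WT. In the double cKO, Cre recombinase is driven by the promoter of the keratin gene Krt14, which is active in basal keratinocytes. Cells that do not descend from Krt14-expressing cells, such as immune cells, are meant to keep intact alleles. A further 2 libraries with counts were labelled K14CreTfap2bfl/fl at 3 weeks, and the other 13 of the 15 files of that age listed each gene at 0 and were not used. Whether each library came from a separate animal is not given in the sources used here, so p-values measure the spread between these libraries.

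Tight junctions seal the space between neighbouring epithelial cells and hold apart the apical and basolateral membranes. Claudins are the membrane-spanning proteins that form the strands and set which solutes pass, occludin is a second kind of membrane-spanning strand protein, and the cytoplasmic tails bind zonula occludens scaffolds, which tie the strands to cingulin and to the actin cytoskeleton. In stratified epidermis, functional tight junctions lie in the granular layer, where they form a barrier beneath the cornified layer, and loss of claudin-1 in mice is known to cause lethal water loss through the skin.

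In the double cKO at 6 months, transcripts of some strand proteins and of cingulin fell. Those of other strand proteins and of the ZO scaffolds Tjp1 and Tjp3 did not pass the test. Cldn4, Cldn7, Cldn23, Ocln and Cgn fell, with fitted changes of -52.1% to -84.0%, while Cldn1 and Cldn8 did not pass either. None rose past the threshold, where 6.26% of all genes tested rose. So 5 of the 9 genes fell at an adjusted p under 0.05 in edgeR's quasi-likelihood test, where 8.59% of the 17755 genes tested fell and 14.9% passed in either direction. At an unadjusted p under 0.05, which 32% of all genes reached, the 9 genes gave 6, with Cldn1 the sixth. The median log2 fold change of the 9 genes was -1.06, against -0.035 over all genes tested. All 9 passed the filter on low counts, but Cldn7, with under 10 counts in each double cKO library, passed it through the controls, and without Cldn7 the count was 4 of 8. The groups did not overlap for 7 genes, with the double cKO below the controls in 6 and above them in 1. With control replicate 3 as the only control, since control replicates 1 and 2 stood apart as described below, 2 of the 9 passed, Cldn4 and Ocln. Over all genes tested, 38.7% did not overlap, 16.3% with the double cKO below and 22.5% with it above. Markers of the granular layer, where the tight junctions lie, and of the cornified layer above it came to 10. Of these, 3 fell as well and the other 7 did not pass, and 4 of the 10 were fitted upward. In bulk RNA fewer cells of a type cannot be told apart from less RNA for each cell.

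**Figure D1:**
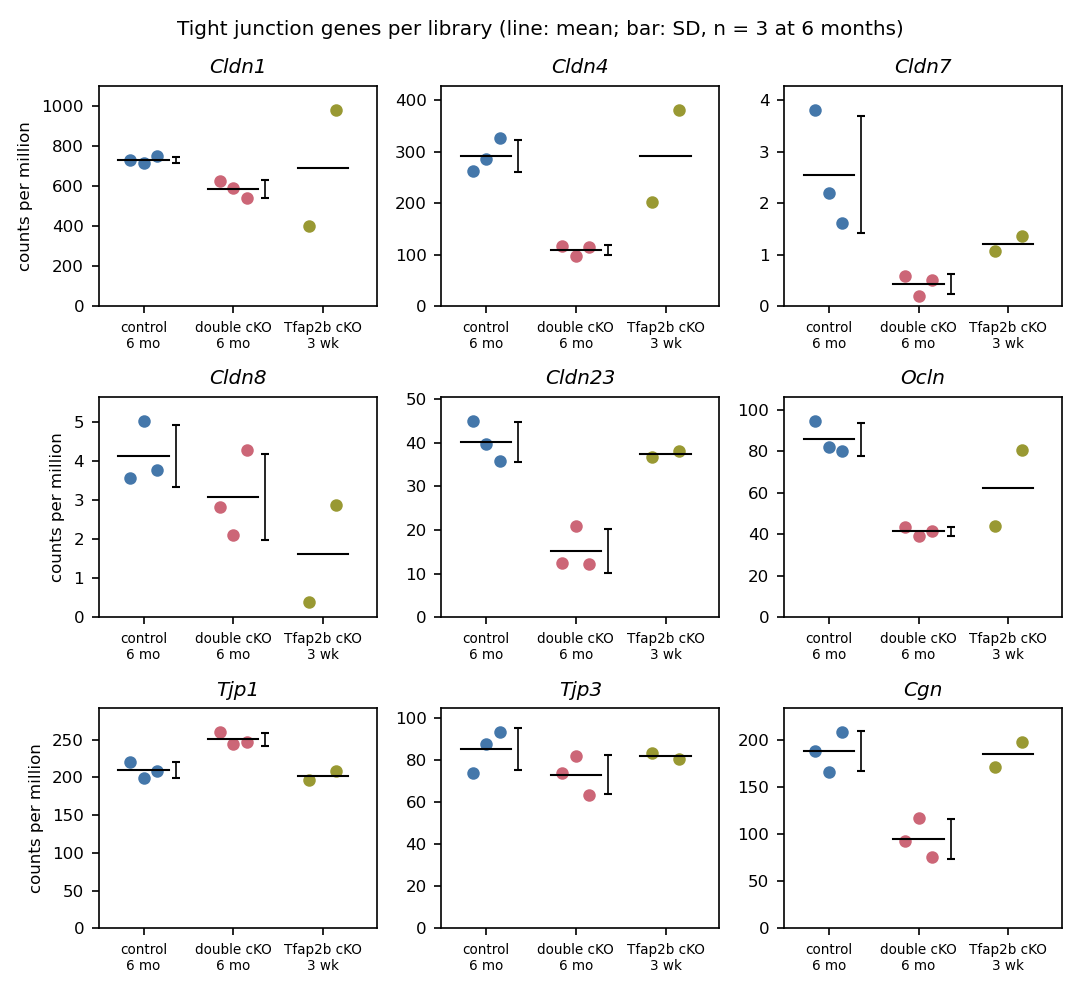
Counts per 1000000 counts of the library (CPM) of each of the 9 genes (vertical axis, linear, from 0), with each point 1 library, lines for group means and bars for the SD of the 3 libraries at 6 months. The double cKO lay below every control for Cldn1, Cldn4, Cldn7, Cldn23, Ocln and Cgn, above every control for Tjp1, and overlapped them for Cldn8 and Tjp3.

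Depth was 11318181 to 17746284 counts in the 8 libraries with counts. Control replicates 1 and 2 stood apart from the rest: they held 1.61 and 3.20 counts per exonic kb in odorant and vomeronasal receptor genes, which serve in the nose, against 0.0965 to 0.194 in the other 6 libraries. Scaled to exonic length, this density came to 24.9% of the Cldn7 counts and 13.2% of the Cldn8 counts in control replicate 2, and to at most 1.45% of the counts of any of the other 7 genes in any library. The genes named as deleted did not fall past the threshold in the double cKO. Tfap2a was at 164.6, 140.3 and 210.1 CPM in the control libraries and at 228.6, 213.2 and 309.2 CPM in the double cKO (edgeR adjusted p 0.118), and Tfap2b held 57.3, 86.6 and 71.03 against 53.8, 57.2 and 56.9 CPM (edgeR adjusted p 0.111). Counts over a whole gene include exons outside a deletion, so they do not check the recombination, and each direction given here rests on the labels.

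Sequence before the start of 3 of the genes that fell is shown here, because Cldn4 and Ocln held the motif matches found among the 9 genes and Cgn, which fell as well, held none. RefSeq promoter entries on GRCm38.p6 were matched for 7 of the 9 genes, 10 entries in all, and not for Cldn8 and Cldn23. In the 250 bases before each start, 3 motifs were searched on both strands: the AP-2 motif GCCNNNGGC, the AP-1 motif TGANTCA and the grainyhead-like motif AACCGGTT. Each motif reads the same on both strands, and no matches overlapped. The sequences below run 5′ to 3′ on the gene's own strand, the minus strand in each case, with motif matches in capitals. They cover chr5:134946935-134947184 for Cldn4, a stretch of 30 bases at chr13:100552527-100552556 before the second Ocln start, and chr3:94786483-94786732 for Cgn.
Cldn4: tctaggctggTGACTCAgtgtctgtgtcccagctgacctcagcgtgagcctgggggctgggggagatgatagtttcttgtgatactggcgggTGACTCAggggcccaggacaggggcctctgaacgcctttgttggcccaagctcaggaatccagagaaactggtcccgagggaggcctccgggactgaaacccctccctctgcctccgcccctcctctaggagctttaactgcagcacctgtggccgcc
Ocln: ccagcgcacaGCCCCGGGCgggttcggcca
Cgn: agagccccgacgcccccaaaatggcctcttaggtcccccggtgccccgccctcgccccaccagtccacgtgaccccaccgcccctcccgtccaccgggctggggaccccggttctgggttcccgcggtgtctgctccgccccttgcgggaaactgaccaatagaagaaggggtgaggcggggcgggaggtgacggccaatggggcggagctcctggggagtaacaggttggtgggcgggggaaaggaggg

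Cldn4 held 2 matches to the AP-1 motif, both reading TGACTCA, which begin 240 and 158 bases before the start. Among the 32851 promoter entries of the same length, 6.75% held an AP-1 match. The second Ocln entry held 1 AP-2 match, GCCCCGGGC, beginning 48 bases before the start, where 13.7% of entries held one. The grainyhead-like motif was in 0.116% of entries and in none of the 10 of these genes. The Cgn entry, like those of Cldn1, Cldn7, Tjp1 and Tjp3, had no match to any of the 3 motifs. These are letter matches in a fixed window and say nothing on binding.

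Among the claudins, Cldn1 and Cldn4 were by far the most abundant. Cldn1 (ENSMUSG00000022512, GRCm38 chromosome 16, 26356642 to 26371841, minus strand, 4 exons) encodes the claudin on which the water barrier of the skin depends. Its level was 728, 715 and 747 CPM in the control libraries, against 626, 589.5 and 539 CPM in the double cKO, each in the order of the replicate numbers, as for every gene below. Every double cKO library was below every control, and the controls differed among themselves by little. The means were 729.95 ± 16.2 and 585 ± 43.3 CPM (SD, n = 3 each), and the log2 fold change of -0.40 (SE 0.12) narrowly missed the threshold (edgeR adjusted p 0.0539, unadjusted p 0.00849). It passed in 4 of 16 alternative analyses: with at least 10 counts required in each library, with DESeq2, with limma-voom and with the receptor-gene background subtracted, at adjusted p-values of 0.0185 to 0.0396.

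Cldn4 (ENSMUSG00000047501, chromosome 5, 134945119 to 134946934, minus strand, 1 exon), a claudin of the upper epidermal layers, held 263, 285 and 326 CPM in the control libraries, against 116, 97.1 and 114 CPM in the double cKO. The highest double cKO library was under the lowest control by more than the whole range of either group. Cldn4 fell by 64.4%, from 291 ± 31.7 to 109 ± 10.5 CPM (SD, n = 3 each), at a log2 fold change of -1.49 (SE 0.14, adjusted p 0.000448 in edgeR). It passed the threshold in all 16 alternatives, at -1.63 to -1.32.

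Cldn23 (ENSMUSG00000055976, chromosome 8, 35824712 to 35826559, minus strand, 1 exon) was the third in abundance among the 5 listed claudins. Its controls held 45.01, 39.6 and 35.7 CPM, and its double cKO libraries 12.4, 20.9 and 12.3 CPM. Double cKO replicate 2 was the highest of its group but below all controls. Cldn23 fell from 40.1 ± 4.66 to 15.2 ± 4.92 CPM (SD, n = 3 each), which is -1.48 on the log2 scale with an SE of 0.24 and an adjusted p of 0.00523 in edgeR, about as much as Cldn4. With control replicate 3 as the only control the log2 fold change was -1.29 and no longer past the threshold (edgeR adjusted p 0.0968), and it passed in the other 15 of 16 alternatives.

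The remaining claudins of the 5 listed had few counts. Cldn7 (ENSMUSG00000018569, chromosome 11, 69964779 to 69967885, plus strand, 4 to 5 exons), known from simple epithelia such as gut and kidney, held 46, 25 and 25 counts in the control libraries, against 8, 3 and 9 in the double cKO, or 3.82, 2.21 and 1.63 against 0.579, 0.205 and 0.507 CPM. Every double cKO library was below every control. The fitted log2 fold change was -2.64 (SE 0.65, adjusted p 0.0263 in edgeR). This call was the least stable of the 5. It was lost in 8 of 15 alternatives, among them without control replicate 1 (-2.22) or 2 (-2.73), without double cKO replicate 1 (-2.84), 2 (-2.27) or 3 (-2.75), under limma-voom (-2.52) and with control replicate 3 as the only control (-1.97), at edgeR or limma adjusted p-values of 0.0522 to 0.274.

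Cldn8 (ENSMUSG00000050520, chromosome 16, 88560828 to 88563183, minus strand, 1 exon), known from tight segments of the kidney tubule and from the gut, held 43, 57 and 58 counts in the control libraries, against 39, 31 and 76 in the double cKO. In CPM this was 3.57, 5.04 and 3.78 against 2.82, 2.11 and 4.28. The groups overlapped, since double cKO replicate 3 was above 2 of the controls. Its log2 fold change was -0.49 (SE 0.40, adjusted p 0.421 in edgeR), and 2 SE on either side ran from -1.29 to 0.30, an interval that holds both no change and the fitted fall of Cgn (-1.06).

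Cldn1 made up more of the claudin transcripts in each double cKO library than in any control. Per exonic length, which allows genes to be compared, Cldn1 made up 56.5%, 54.8% and 53.4% of the summed level of the 5 claudins in the controls and 72.7%, 73.4% and 69.9% in the double cKO. Cldn4 made up 36.5%, 39.1% and 41.6% in the controls and 24.2%, 21.6% and 26.4% in the double cKO. These shares are taken within a library and do not depend on the scaling between libraries. Cldn23 made up 5.32% ± 0.824 of the controls and 3.30% ± 1.11 of the double cKO (SD, n = 3 each), with overlap, because double cKO replicate 2 at 4.56% was above control replicate 3 at 4.49%. Cldn7 and Cldn8 each stayed at or under 0.765% in every library. The ratio of Cldn4 to Cldn1 per length, a pairing chosen after the values were seen, was 0.646, 0.714 and 0.779 in the controls and 0.332, 0.294 and 0.378 in the double cKO. The difference in its log2 was -1.09. Shares and ratios over the chosen genes are given as descriptions with no test, and 3 libraries against 3 could not go below p = 0.1 in an exact two-sided permutation test.

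**Figure D2:**
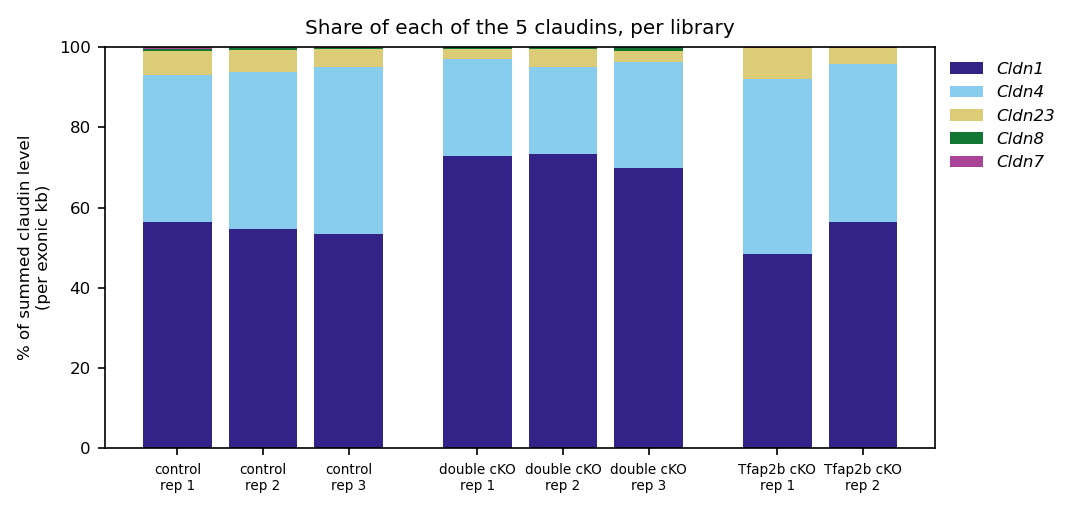
Stacked bars of the share of each claudin in the summed claudin level per exonic kb (vertical axis, percent), 1 bar for each library. Cldn1 took 53.4% to 56.5% in the 3 controls and 69.9% to 73.4% in the 3 double cKO libraries, and Cldn4 took 36.5% to 41.6% in the controls and 21.6% to 26.4% in the double cKO.

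Ocln (ENSMUSG00000021638, chromosome 13, 100496507 to 100552718, minus strand, 7 to 9 exons) encodes occludin, the first membrane-spanning protein found at tight junctions. It held 94.8, 81.99 and 80.4 CPM in the control libraries, against 43.5, 39.3 and 41.5 CPM in the double cKO. The double cKO libraries were close to each other, and all lay far below the controls. Ocln fell by 54.2%, from 85.7 ± 7.91 to 41.4 ± 2.09 CPM (SD, n = 3 each), which is -1.13 on the log2 scale with an SE of 0.14 and an adjusted p of 0.00173 in edgeR, and passed the threshold in all 16 alternatives, at -1.19 to -1.01.

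The zonula occludens scaffolds bind claudin tails through PDZ domains. Tjp1 (ENSMUSG00000030516, chromosome 7, 65296165 to 65527781, minus strand, 27 to 28 exons) encodes ZO-1, which also sits at adherens junctions. It held 221, 199.6 and 209 CPM in the control libraries, against 261, 245 and 247 CPM in the double cKO, so each double cKO library was above each control. The log2 fold change of 0.18 (SE 0.12, adjusted p 0.320 in edgeR) did not pass the threshold in the reported fit or any of 16 alternatives. With 2 SE on either side it ran from -0.055 to 0.42. Genes annotated within the Tjp1 span (Gm44794 and Gm44792 on the same strand, the pseudogene Gm44795 on the other) can share reads with it, since the use of strand in counting is not given in the sources used here.

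Tjp3 (ENSMUSG00000034917, chromosome 10, 81273207 to 81291267, minus strand, 21 exons) encodes ZO-3, the scaffold of the family that is largely confined to epithelia. It held 74.1, 87.7 and 93.6 CPM in the control libraries, against 74.01, 81.7 and 63.3 CPM in the double cKO. The groups overlapped, and the log2 fold change of -0.30 (SE 0.15, adjusted p 0.203 in edgeR) did not pass the threshold. Its end overlaps 40 bases of Apba3 on the other strand.

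Cgn (ENSMUSG00000068876, chromosome 3, 94760069 to 94786492, minus strand, 5 to 21 exons) encodes cingulin, a plaque protein that binds ZO proteins and links them to actomyosin and microtubules. It held 188, 166 and 208 CPM in the control libraries, against 92.3, 117 and 75.1 CPM in the double cKO. Double cKO replicate 2 was the nearest to the controls, and the groups did not overlap. Cgn fell by 52.1%, from 188 ± 21.1 to 94.8 ± 21.1 CPM (SD, n = 3 each), which is -1.06 on the log2 scale with an SE of 0.17 and an adjusted p of 0.00545 in edgeR. With control replicate 3 as the only control it was -1.19 and just short of the threshold (edgeR adjusted p 0.0513), and it passed in the other 15 of 16 alternatives.

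Within the plaque, the ratio of Cgn to Tjp1 per exonic length, also chosen after the values were seen, was 1.10, 1.08 and 1.30 in the controls and 0.459, 0.620 and 0.395 in the double cKO. The difference in its log2 was -1.26. On the same per-length scale, the log2 ratio of the summed claudins to the sum of Tjp1, Tjp3 and Cgn was 2.24, 2.29 and 2.22 in the controls and 1.86, 1.67 and 1.87 in the double cKO. Each double cKO library thus had less claudin transcript for its scaffold transcript than each control.

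**Figure D3:**
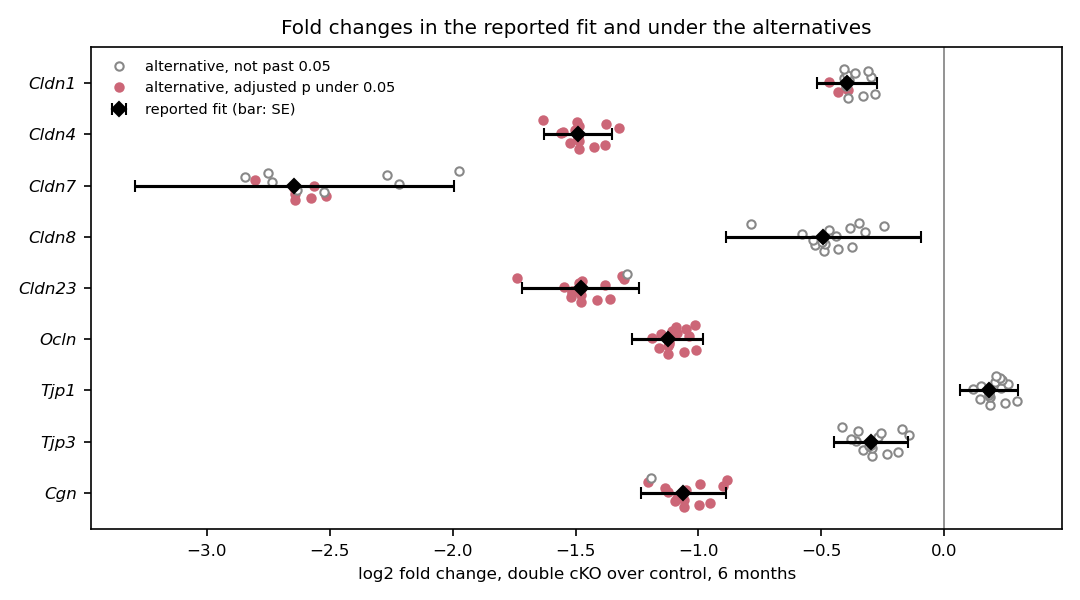
Log2 fold changes of the 9 genes, double cKO over control at 6 months (horizontal axis), with diamonds and SE bars for the reported fit and circles for the alternatives, filled where the adjusted p was under 0.05. Cldn4 and Ocln were filled throughout, Cldn7 had the widest bar (SE 0.65), and Tjp1 was the only gene fitted above 0.

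In order of level per exonic length, the controls ran from Cldn1 at 225 ± 4.995 and Cldn4 at 160.4 ± 17.4 RPKM (CPM per exonic kb, SD, n = 3), through Cgn at 31.2, Tjp3 at 28.1, Tjp1 at 26.8, Cldn23 at 21.7 and Ocln at 20.3, to Cldn8 at 1.75 and Cldn7 at 1.31. Neighbours in this order whose library ranges overlapped were Cgn and Tjp3, Tjp3 and Tjp1, Cldn23 and Ocln, and Cldn8 and Cldn7. In the double cKO the order was Cldn1 at 180.1, Cldn4 at 60.1, Tjp1 at 32.1, Tjp3 at 24.1, Cgn at 15.7, Ocln at 9.82, Cldn23 at 8.21, Cldn8 at 1.30 and Cldn7 at 0.221 RPKM, and only Ocln and Cldn23 overlapped. Tjp1 thus ranked the fifth in the controls and the third in the double cKO, and Cgn the reverse.

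**Figure D4:**
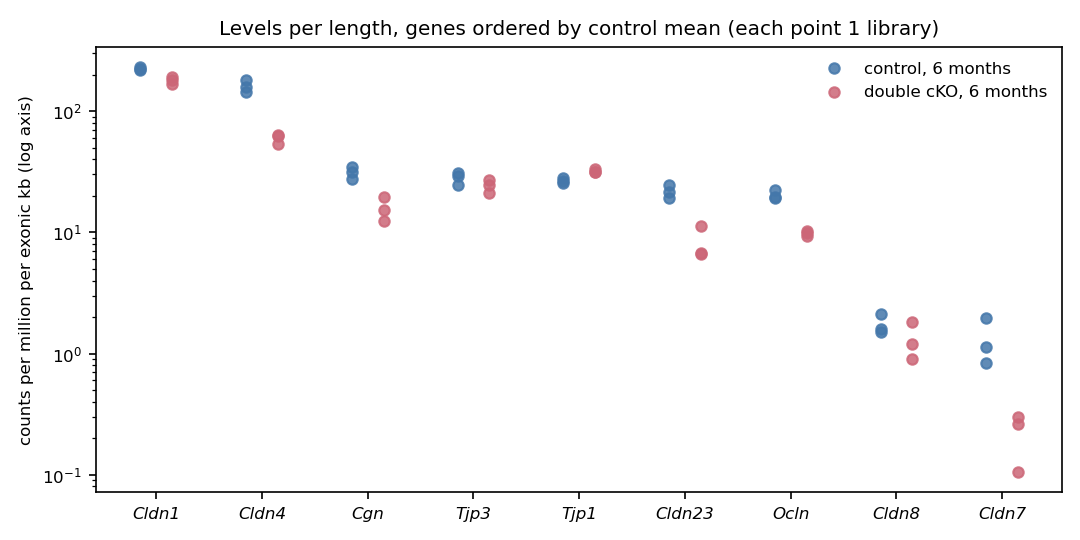
Level of each gene in CPM per exonic kb (vertical axis, logarithmic), ordered by the control mean, with each point 1 library at 6 months. Cldn1 and Cldn4 were at 145 or more in each control, Cgn, Tjp3, Tjp1, Cldn23 and Ocln lay between 19.0 and 34.6, and Cldn7 and Cldn8 were at or below 2.14.

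The 2 libraries labelled K14CreTfap2bfl/fl at 3 weeks had no control of their age with counts, and their values are given without comparison. Cldn1 was at 402 and 980.4 CPM, Cldn4 at 202 and 381 CPM, and Ocln at 44.2 and 80.6 CPM in replicates 1 and 2. Tjp1 (197 and 208 CPM), Tjp3 (83.4 and 80.4), Cgn (171 and 198) and Cldn23 (36.7 and 38.04) were closer between the replicates, while Cldn8 was at 0.385 and 2.88 CPM and Cldn7 at 1.08 and 1.36. The replicates differed in other cell types: summed fibroblast markers were at 2556 and 17.3 CPM, adipocyte markers at 1903 and 0.320, and endothelial markers at 475 and 0.320. Cldn5, the claudin of endothelium, was at 42.1 CPM in replicate 1 and at 0 counts in replicate 2, and at 0.130 to 0.507 CPM in the 6 libraries of 6 months. The part of these cells in the values of Cldn1, Cldn4 and Ocln was not tested.

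Other genes of the tight junction were read from lists drawn up by function. Of all genes tested, 14.9% were called, 8.59% lower and 6.26% higher. Among the 28 claudin genes outside the 9, 4 were tested and 1 was called, Cldn3, a claudin of simple and glandular epithelia. It fell from 4.75 ± 1.38 to 0.706 ± 0.328 CPM (SD, n = 3 each), which is -2.80 on the log2 scale with an SE of 0.50 and an adjusted p of 0.00832 in edgeR, and the call was lost with control replicate 3 as the only control (-2.38, edgeR adjusted p 0.105). In the double cKO Cldn3 held 0.435, 0.614 and 1.07 CPM, so like Cldn7 it passed the low-count filter through the controls. It was not among the genes tested when 10 counts were required in each library. Cldn12 (log2 fold change 0.21) and Cldn18 (-0.90) did not pass. Without control replicate 3, the control with the low receptor-gene counts, 7 of these claudin genes were tested and 4 fell. In that setting 4811 of all 21030 genes tested fell. Its only controls were replicates 1 and 2, with the raised receptor-gene counts, and the part of that background in these calls was not tested.

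Of 24 other transmembrane proteins and adaptors, 22 were tested. Of these, 8 fell and 1 rose, where 8.59% of all genes tested fell and 6.26% rose. The list's median log2 fold change was -0.60. Marveld2 encodes tricellulin, the occludin relative that seals the corners where several cells meet, and it fell from 29.2 ± 3.41 to 11.3 ± 3.28 CPM (SD, n = 3 each), which is -1.44 on the log2 scale with an SE of 0.23 and an adjusted p of 0.00523 in edgeR, in the fit and all 16 alternatives. Lsr, the receptor that brings tricellulin to those contacts, fell by 0.74 on the log2 scale, and F11r, the junctional adhesion molecule JAM-A, by 0.76. The scaffold genes Magi3 (-1.14), Afdn (-0.61, afadin of adherens junctions) and Amotl2 (-0.59) were also lower, and Tjap1, a protein that associates with tight junctions, rose by 0.87. Cxadr and Amotl1, the most abundant of those that did not pass, were at log2 fold changes of 0.20 and 0.17. The count of 9 called genes depended on single libraries: it was 5 without control replicate 2, 3 without double cKO replicate 3 and 1, Marveld2, without double cKO replicate 1 or 2. F11r and Tjap1 each lost their call in 4 of 16 alternatives, Afdn in 5, Lsr and Magi3 each in 6 and Amotl2 in 7.

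Of the 17 polarity complex genes tested, 3 fell and 1 rose (median log2 fold change -0.19), where 8.59% of all genes tested fell and 6.26% rose. Pard6b, a Par6 adaptor of the apical polarity complex, fell from 80.9 ± 25.7 to 20.6 ± 2.28 CPM (SD, n = 3 each), which is -2.06 on the log2 scale with an SE of 0.23 and an adjusted p of 0.00104 in edgeR, in the fit and all 16 alternatives. Mpp5 (PALS1, -0.55) and Llgl2 (-0.45) were lower and Scrib (0.64) higher, but Mpp5 passed in 8, Llgl2 in 5 and Scrib in 9 of 16 alternatives. The count of 4 was 2 without control replicate 2, and 1 without control replicate 1 or any 1 double cKO library. Tiam1 and Cdc42 did not pass.

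Of the 19 regulators tested, 3 fell and 1 rose (median -0.16), where 8.59% of all genes tested fell and 6.26% rose. Prss8, the membrane protease prostasin, which is needed for the epidermal barrier, had a log2 fold change of -1.04 (edgeR adjusted p 0.0301), and the kinase genes Mylk and Ripk4 of -1.41 and -0.46. Grhl2, a grainyhead-like factor known to drive claudin genes in epithelia, rose by 0.58 (edgeR adjusted p 0.0263), and its part in the claudin values was not tested. Prss8 lost its call in 6, Grhl2 in 7, and Mylk and Ripk4 each in 9 of 16 alternatives. The count of 4 was 1 without control replicate 2, and 0 without control replicate 1 or any 1 double cKO library. The transcription factor genes Klf4 (log2 fold change -0.52, edgeR adjusted p 0.0505) and Trp63 (0.32, edgeR adjusted p 0.172) did not pass, though Klf4 passed in 5 of 16 alternatives.

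Adherens junction genes, which lie next to tight junctions in the same cells, did not share one direction: of 15 tested, 3 fell and 2 rose (median -0.077). The shares of all genes tested were 8.59% lower and 6.26% higher. Among the nectins, adhesion proteins that afadin anchors, Nectin3 fell from 151 ± 8.89 to 20.6 ± 7.84 CPM and Nectin2 from 105 ± 18.6 to 48.1 ± 7.80 CPM, while Nectin1 rose from 489 ± 67.9 to 879.9 ± 104 CPM (SD, n = 3 each, edgeR adjusted p 0.000527, 0.00457 and 0.0107). Nectin4 was lower (-0.56) and Ajuba, a LIM adaptor, higher (1.00), and they passed in 10 and 15 of 16 alternatives. The count of 5 was 3 without double cKO replicate 1. Cdh1, the E-cadherin gene (-0.38, edgeR adjusted p 0.0664), and Jup, the plakoglobin gene (0.37, edgeR adjusted p 0.0778), did not pass, though they passed in 4 and 5 of 16 alternatives.

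**Figure D5:**
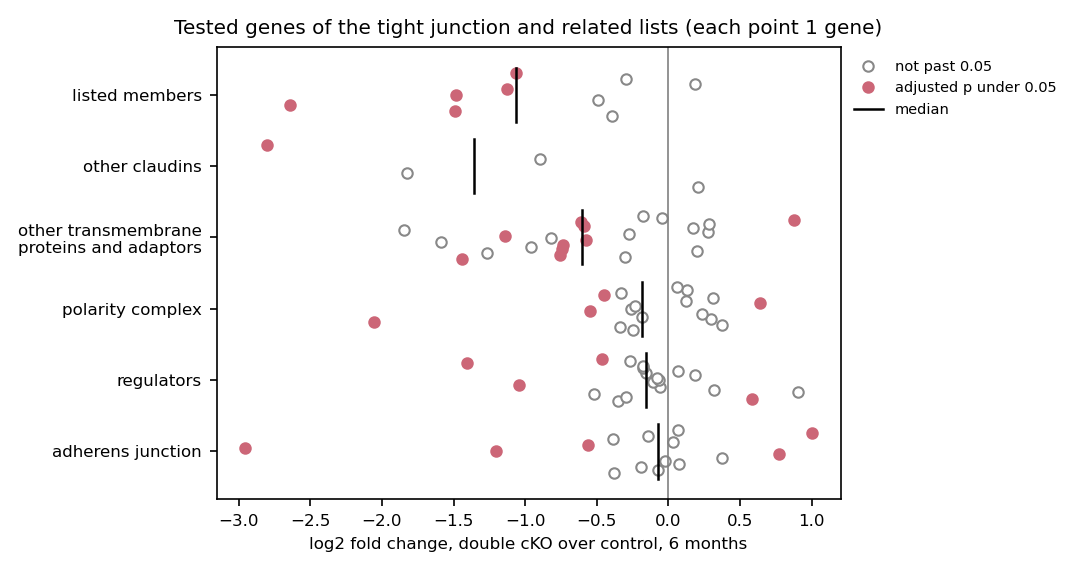
Log2 fold changes of the tested genes (horizontal axis, double cKO over control at 6 months) in the 9 listed genes and 5 further lists, each point 1 gene, filled where the adjusted p was under 0.05, with a line at the list's median. The medians ran from -1.36 in the other claudins, over 4 genes, and -1.06 in the 9 listed genes to -0.077 in the adherens junction.

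On the chromosome, the nearest protein-coding genes on either side of the 9 came to 18, leaving out Apba3, which overlaps Tjp3. Of these, 13 were tested, 3 fell and 1 (Prag1, 268 kb from Cldn23) rose, where 8.59% of all genes tested fell and 6.26% rose. These neighbours were looked up after the values of the 9 genes were known. Cldn3 is 39.3 kb from Cldn4 and Marveld2 is 43.2 kb from Ocln, and both pairs fell. Slc2a4, the glucose transporter gene 16.6 kb from Cldn7, was also lower (log2 fold change -2.57, edgeR adjusted p 0.0361, at 1.66 to 2.47 against 0.136 to 0.676 CPM), and lost the threshold in 10 of 15 alternatives. Like Cldn3, it passed the low-count filter through the controls. Prag1 passed the threshold in 9 of 16 alternatives. It held 37.4, 16.4 and 18.4 CPM in the double cKO, against 9.30 to 11.7 CPM in the controls. Elp5, which at 0.337 kb from Cldn7 was the nearest of these 18 neighbours, did not pass (-0.23).

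Across the 8 libraries with counts, the profile nearest to that of each gene was found by the root mean square difference of log2(CPM + 1) after each gene was centred on its own mean. Nearest among the 9 were Cgn for Cldn23 and Cldn23 for Cgn, which differed by 0.245, and Cldn7 for Ocln and Ocln for Cldn7, which differed by 0.266. Among 10318 other tested protein-coding genes with a mean of at least 5 CPM, the nearest gene to Cldn4 was Fosb, which encodes a component of AP-1 (difference 0.102), with 1372, 1398 and 1389 CPM in the control libraries, against 579.8, 409.96 and 529 CPM in the double cKO. The nearest to Ocln was Tmem170b, to Cgn Susd2, to Cldn23 Sntb1, to Cldn7 Mex3a, to Cldn8 Flrt3, to Cldn1 Mdm2, to Tjp1 Dicer1 and to Tjp3 Rdx. Cldn7 and Cldn8 themselves had means under 5 CPM. The 1 CPM added before the log narrows the differences of genes this low, so their likenesses, as of Cldn7 to Ocln, are uncertain. To Cldn1, Tjp1 and Tjp3, 1426, 3883 and 2413 other genes were nearer than the nearest of the 9, against 25 for Cldn23. Tjp1 and Tjp3 were nearest to each other, at a difference of 0.278. Both varied little, with root mean square spreads of 0.144 and 0.160 about their own means. The largest difference from the nearest of the 9 was that of Cldn8, at 0.473 from Cldn1, with 491 other genes nearer.

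Markers of the epidermal layers differed between the groups. Beside the counts of markers called, 8.59% of all genes tested fell and 6.26% rose. Granular and cornified markers summed to 3368 to 5345 CPM in the control libraries, against 1628 to 2862 CPM in the double cKO, and 3 of 10 fell (Flg2, Klk7 and Cdsn). Flg2 carried this gap: without it, a sum added after seeing the data, the groups overlapped, at 1689.6 to 2825 and 1093 to 2111 CPM. The other markers went both ways, with Flg (log2 fold change 1.01), Tgm3 (1.24), Casp14 (0.86) and Ivl (0.051) fitted upward and none of these 4 past the threshold. Suprabasal markers summed to 11893 to 14706 and 12707 to 16672 CPM, with 2 of 7 higher and 1 lower. Basal markers summed to 8392 to 10683 and 16036 to 19010.1 CPM, with 5 of 8 higher, and wound and stress keratin and proline-rich markers to 464 to 729.6 and 3493 to 4438 CPM, with 4 of 6 higher. Their part in the fall of the tight junction genes was not tested.

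Among markers of other cells, none was called higher, where 6.26% of all genes tested rose and 8.59% fell. Sebaceous markers summed to 1440.3 to 1561 and 710.003 to 833 CPM, with 3 of 6 tested genes lower, and fibroblast markers to 53.0 to 157 and 11.7 to 23.05 CPM, with 3 of 6 lower. Hair follicle markers, at 531 to 868 and 565 to 730.3 CPM, had 1 of 9 tested genes lower, Lgr5 (log2 fold change -3.72), and a median of -1.23. Most of their sum was Gata3, and without it they were at 111 to 156 CPM in the control libraries and 26.1 to 47.2 CPM in the double cKO, with no overlap. T cell markers, at 63.9 to 128 and 33.8 to 106, had 1 of 6 lower, and Langerhans and myeloid markers, at 779 to 984 and 630.05 to 932, had 1 of 9 lower. Markers of simple or glandular epithelium, where Cldn3, Cldn7 and Cldn8 are typical, were at 5.99 to 23.3 and 7.09 to 13.9 CPM in sum, with Krt7 lower among 5 tested. Endothelial, melanocyte, Merkel, adipocyte and muscle markers each summed to at most 29.5 CPM, with 1 muscle gene lower and no other call. No marker of these lists was at 0 in all 6 libraries, and the part of these cells in the claudin values was not tested.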

How the data were processed

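The 9 genes and all gene lists were chosen with earlier results of these data known. The deposited files hold whole-number counts per Ensembl gene from 150-base paired reads, which the authors trimmed, aligned and counted with tools that the submitters' processing notes name as Trimmomatic 0.36, STAR 2.5.2b and featureCounts of Subread 1.5.2, beside the builds GRCh38 and GRCm38. Gene identifiers, 99.5% of which were found in GENCODE M21, and coordinates are on GRCm38. Multi-mapped reads and strand settings are not given in the sources used here. Of 21 files, 13 hold 0 for every gene and were left out.

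From the counts, CPM (counts per 1000000 counts of the library) and RPKM (CPM per kb of the file's exonic length) were computed. The 3 double cKO and 3 control libraries of 6 months were compared in R 4.3.3 with edgeR 4.0.16 (low-count filter by filterByExpr, TMM scaling, robust quasi-likelihood test) and Benjamini-Hochberg adjustment over 17755 genes at a threshold of 0.05, with 2637 genes called and 5690 at an unadjusted p under 0.05. The alternatives used other scalings, filters, DESeq2 1.42.0, limma-voom (limma 3.58.1), a replicate block, a joint fit, a background subtraction and fewer libraries. In simulated data with 4-fold changes, 144 of 190 changed genes were recovered with 21 false calls among 165. The text names all 9 genes, those with the nearest profiles and, from each further list, up to 8 genes past the threshold by size of change and the 2 most abundant that did not pass. The further lists are other claudins, other transmembrane proteins and adaptors, polarity complex, regulators, adherens junction and the cell type markers. The values of 1 gene of these lists are not reported here.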

Additional observations from a re-analysis of the deposited data

How the results depend on the processing

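Cldn4 and Ocln kept their calls in each of 16 alternatives. Cldn8, Tjp1 and Tjp3 passed in none, and the sign of all 9 genes held throughout. The number of genes called, 2637, became 4809 without a filter on low counts (1941 higher, 2868 lower) and 437 with control replicate 3 as the only control (195 higher, 242 lower), where that lone library is assumed to vary like the other group. Leaving out 1 library gave 668 (without double cKO replicate 1) to 7544 (without control replicate 3), with 313 to 2733 higher and 355 to 4811 lower. A fit over all libraries called 715 higher. Of the 9 genes, 4 to 5 passed with 1 library left out and 2 with control replicate 3 as the only control.

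Same-numbered double cKO and control deviations correlated at 0.028, -0.16 and -0.057, and unlike-numbered ones at -0.11 to 0.17. Deviations from a mean of 3 libraries are not independent, so these values cannot settle whether the replicate numbers pair the libraries. With the replicate number as a block, 1729 genes passed (720 higher, 1009 lower). Of the 9 genes, 4 passed under this block, with Cldn7 at an edgeR adjusted p of 0.0503. The block left 2 polarity genes and 1 regulator called.

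Without division by length, the difference in the Cldn1 share was 13.6 and that in the Cldn4 share -11.9 percentage points. The difference in the Cldn8 share ran from -0.021 (without double cKO replicate 3) to 0.18. Of the other claudins, 0 passed at 10 or more counts in each library and 0 with control replicate 3 as the only control, and 1 to 4 with 1 library left out. That lone control left 3 adaptor, 1 polarity, 0 regulator and 0 adherens junction genes called. Leaving out 1 library gave 1 to 11 adaptor, 1 to 4 polarity, 0 to 6 regulator and 3 to 6 adherens junction genes. Without a filter 2 polarity genes passed, and the fit over all libraries left 1 polarity gene and 1 regulator. Uncalled genes that changed sign were Cldn18 (0.17), Amotl1 (-0.046) and Tiam1 (-0.080) with control replicate 3 as the only control, Tiam1 with the background subtracted (-0.0055) and Cxadr without double cKO replicate 3 (-0.094), where leaving out 1 library gave -0.094 to 0.41. The cause of these changes was not tested. The log2 ratios of Cldn4 to Cldn1 and Cgn to Tjp1, chosen after seeing the data, kept their direction with 1 library left out, at -1.18 to -1.003 and -1.44 to -1.12. Low counts limit Cldn7 and Cldn8.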
